A study of Mus musculus with 11 samples.

Results

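The late cornified envelope (Lce) and small proline-rich (Sprr) genes were taken by name from the deposited gene table: every symbol beginning with Lce or Sprr and a digit, together with loricrin (Lor), involucrin (Ivl), filaggrin 2 (Flg2) and hornerin (Hrnr). This gave 41 of the 24411 genes in the files, of which 14 were Lce1, 6 were Lce3, 2 were Sprr1 and 12 were Sprr2 genes. The others were Lce6a, Sprr3, Sprr4 and the 4 envelope genes added by name. Of the 41, 40 had enough reads to be tested, and Sprr3 did not.

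The libraries came from total RNA of back skin of mice painted with MC903 (calcipotriol), an analogue of vitamin D whose repeated application inflames skin. All hosts were of the strain Tg(act-EGFP)Y01Osb, had 10 Gy of irradiation and were then given sorted marrow from the femurs of Pdgfra-Cre;tdTomato mice. The donor cells were tdTomato-negative in 7 samples (the negative group) and tdTomato-positive in 4 (the positive group). In such donors Cre under Pdgfra control leaves tdTomato in a cell and its descendants, so the label records past as well as present activity of the driver. After a recovery of 6 weeks both groups received 6 applications of MC903, and skin was taken on day 14. The labels give an age of 16-18 without a unit. There was no skin without MC903 and no skin without transplantation among the 11 samples, so the values below have no untreated level beside them. The labels do not say that each sample is its own animal, and p-values therefore measure the spread between these samples only.

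The cornified envelope is the layer of cross-linked protein that replaces the plasma membrane of a keratinocyte at the end of its differentiation. Involucrin is laid down early, loricrin makes up much of the mass in the granular layer, Sprr proteins bridge other envelope proteins, and Lce proteins are added late; transglutaminases join them. Sprr1, Sprr2 and Lce3 genes are known to be induced when the epidermis is injured or inflamed, whereas Lce1 genes belong to normal terminal differentiation. The genes lie side by side in the epidermal differentiation complex, here on chromosome 3 of GRCm38.p6 between 92080271 (start of Lor) and 93333572 (end of Hrnr), a stretch of 1253302 bases. Along it stood Lor, the Sprr2 genes, Sprr1b, Sprr3, Sprr1a, Sprr4, Ivl, Lce6a, 13 Lce1 genes, the 6 Lce3 genes, Lce1m, Flg2 and Hrnr.

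How alike the members are decides how well reads can be told apart, and 2 coding sequences show what Sprr2 genes share. They are given 5′ to 3′ in lower case, with each cysteine codon (TGC or TGT in frame) in capitals, and come from the GENCODE M21 transcripts.
Sprr2a3 coding sequence: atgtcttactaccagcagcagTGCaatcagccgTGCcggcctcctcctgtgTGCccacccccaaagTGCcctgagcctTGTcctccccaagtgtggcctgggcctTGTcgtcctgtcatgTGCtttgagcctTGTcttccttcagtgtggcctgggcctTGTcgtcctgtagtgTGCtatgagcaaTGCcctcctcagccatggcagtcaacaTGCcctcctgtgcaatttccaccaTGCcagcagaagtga
Sprr2d coding sequence: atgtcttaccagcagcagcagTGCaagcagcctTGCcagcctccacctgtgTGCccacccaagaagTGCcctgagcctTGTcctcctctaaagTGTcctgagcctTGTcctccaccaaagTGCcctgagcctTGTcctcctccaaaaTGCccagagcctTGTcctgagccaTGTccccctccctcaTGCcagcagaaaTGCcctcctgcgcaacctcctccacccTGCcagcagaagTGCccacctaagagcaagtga
Sprr2a3 held 13 cysteine codons among its 83 codons, and 31.3% of its codons were for proline. Sprr2d had 41.2% proline and 18.8% cysteine codons. The 13 Lce1 genes other than Lce1m had between 20.8% (Lce1k) and 23.0% (Lce1l) cysteine codons. In Lor 55.3% of codons were for glycine, and in Ivl 26.7% were for glutamine, the residue that transglutaminases join to lysine.

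The coding sequences of Sprr2a1 and Sprr2a2 were 100% identical, and Sprr2a3 was 98.8% identical to them. The expected counts of Sprr2a1 and Sprr2a2 were equal in all 11 samples, so the pair carries 1 measurement. Among the Lce3 genes identity ran from 94.3% to 99.3% (median 97.6% of 15 pairs), against a median of 83.6% among Lce1 and 66.75% among Sprr2 genes. Sprr1a and Sprr1b were 78.8% identical. RSEM divides reads that match several genes, and 27 members had a count that was not whole (further than 0.005 from a whole number) in at least 1 sample. Sprr1a, Sprr1b, Sprr4, Lor, Ivl, Flg2, Hrnr, Lce1m and Lce6a had whole counts in all 11 samples. The split of reads among the Sprr2a copies, among the Lce3 genes and among the Lce1 genes other than Lce1m is an estimate. Counts were also not whole for Sprr2b in 11 samples, Sprr2e in 10, Sprr2i in 8, Sprr2d in 2 and Sprr2f in 1.

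The 250 bases before the RefSeq start were searched on both strands for short motifs, because some members that lie side by side did not vary together. Promoters of 38 members were matched by symbol in the RefSeq table for GRCm38.p6; those of Sprr2g, Sprr2j-ps and Lce1f were not searched. Of the promoters searched, 5 are printed. Capitals mark matches to TATAAA (core of the TATA box), TGANTCA (AP-1), ATGCAAAT or its reverse ATTTGCAT (the octamer read by POU factors) and TGACNNNGC (antioxidant response element), each searched on both strands; in Sprr1a an AP-1 match lies within an antioxidant match.
Sprr2a3, chr3:92285054-92285303, plus strand: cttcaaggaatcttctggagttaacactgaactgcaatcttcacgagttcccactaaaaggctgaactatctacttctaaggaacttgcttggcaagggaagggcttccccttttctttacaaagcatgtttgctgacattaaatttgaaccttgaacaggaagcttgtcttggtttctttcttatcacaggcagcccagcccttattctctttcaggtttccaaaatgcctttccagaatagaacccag
Sprr2d, chr3:92338890-92339139, plus strand: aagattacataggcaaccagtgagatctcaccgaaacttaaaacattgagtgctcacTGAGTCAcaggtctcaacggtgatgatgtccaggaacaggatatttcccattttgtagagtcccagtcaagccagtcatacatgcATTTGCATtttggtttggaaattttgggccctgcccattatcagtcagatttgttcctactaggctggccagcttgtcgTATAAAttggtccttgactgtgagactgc
Sprr1a, chr3:92485882-92486131, minus strand: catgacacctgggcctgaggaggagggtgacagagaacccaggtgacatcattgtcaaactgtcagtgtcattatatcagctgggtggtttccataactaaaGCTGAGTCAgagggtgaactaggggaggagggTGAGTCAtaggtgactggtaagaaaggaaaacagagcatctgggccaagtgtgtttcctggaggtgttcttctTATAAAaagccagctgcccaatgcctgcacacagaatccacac
Lce1a1, chr3:92648308-92648557, minus strand: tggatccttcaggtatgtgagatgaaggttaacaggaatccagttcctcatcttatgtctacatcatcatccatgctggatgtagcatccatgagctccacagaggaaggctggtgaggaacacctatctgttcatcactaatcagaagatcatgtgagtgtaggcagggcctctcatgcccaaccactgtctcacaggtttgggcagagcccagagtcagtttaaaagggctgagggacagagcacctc
Lce1m, chr3:93019062-93019311, minus strand: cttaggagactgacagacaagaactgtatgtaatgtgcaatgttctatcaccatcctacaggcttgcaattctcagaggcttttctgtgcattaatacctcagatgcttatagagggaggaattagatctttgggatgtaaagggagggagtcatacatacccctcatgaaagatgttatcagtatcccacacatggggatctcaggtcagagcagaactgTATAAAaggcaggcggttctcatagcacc
Only the letters given were counted, so variant forms of the TATA box were not. TATAAA stood in 17 of 38 member promoters (44.7%) and in 12.97% of the 27025 promoters of all genes in the table. AP-1 matches stood in 12 (31.6%, against 6.87% of all promoters) and octamer matches in 7 (18.4%, against 1.61%). The same 7 Sprr2 promoters (Sprr2b, Sprr2d, Sprr2e, Sprr2f, Sprr2h, Sprr2i and Sprr2k) held all 3, with the TATA box 29 to 24 bases before the start in each. Pairs of these 7 windows were 60.1% (Sprr2f and Sprr2h) to 89.3% (Sprr2d and Sprr2e) identical. They belong to related genes, so the shares of members with a match do not rest on separate promoters. The windows of Sprr2a1, Sprr2a2 and Sprr2a3 held none of the 3. The GENCODE annotation gives Sprr2a2 transcripts of 722 and 2867 bases and Sprr2a3 transcripts of 682 and 2880 bases. Only the window of 1 start of each gene was searched. Of the other members, AP-1 matches stood before Sprr1a (at 146 and 116 bases), Sprr1b (111), Lor (48), Ivl (116) and Flg2 (69). Those of Sprr1b and Flg2 read TGAATCA, and those of Sprr1a, Lor and Ivl read TGAGTCA or TGACTCA. The 13 Lce1 and 6 Lce3 genes searched had 0 AP-1 matches. Not all TATAAA matches lay near the start: those of Lce6a and Lce3e were on the other strand, 218 and 243 bases before it. A match to AACCNGTT (the Grainyhead motif) was found before 0 of 38 members, against 1.71% of all promoters. A match is a stretch of letters and not a measured binding site, and its part in the levels of a member was not tested.

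The depth, as the sum of expected counts, lay between 7190752 and 9749842. To compare 1 gene across samples, counts were scaled with edgeR's TMM factors and expressed as CPM, and to compare genes with each other TPM was used, which divides by length. Epidermal keratins were abundant in every sample, with Krt14 (basal layer) between 3156 and 11694 CPM and Krt10 (spinous layer) between 866 and 6245 CPM, so the defining transcripts of epidermis were present. Libraries stood apart in their hair follicle transcripts. The 34 tested genes of a hair shaft and follicle list summed to between 514 and 54715 CPM in the negative and between 670 and 16686 CPM in the positive group, and Krt71, an inner root sheath keratin, was at 4743 to 8584 CPM in negative samples 2 to 6, at 2616 in positive 4 and at no more than 536 in the other 5. Negative 3 was the highest of the 11 samples for 22.4% and the lowest for 17.3% of all tested genes.

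In TPM the members spanned a wide range. Sprr2a3 had the highest mean (3336 ± 1425 TPM, SD, n = 11), followed by Sprr1a (2386 ± 709). Then came Sprr2a1 and Sprr2a2 (each 741 ± 312), Sprr1b (558 ± 279), Lce1a1 (492 ± 200), Lce1b (338 ± 152), Sprr4 (325 ± 138) and Lor (255 ± 130). Neighbours in this order differed by less than the larger of their SDs, apart from Sprr1a and the Sprr2a1 and Sprr2a2 copies below it. The place of Sprr2a3 above its copies rests on length. In counts Sprr2a1 exceeded Sprr2a3 in every sample, but the files give Sprr2a1 a length of 3547 bases and Sprr2a3 852 bases. Sprr4 rests on length as well, with 17 to 119 counts per sample and an effective length of 41.0 to 53.4 bases. At the other end stood Sprr2k (5.23 ± 3.92 TPM) and Sprr3, an Sprr gene abundant in oesophagus, with 0 to 3 counts in each library. A count of 0 in a library allows up to 3 counts.

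All 41 members together took between 0.43% (negative 3) and 1.24% (positive 2) of the expected counts of a sample. Their share was 0.772% ± 0.228 (SD, n = 7) in the negative and 1.08% ± 0.197 (SD, n = 4) in the positive group, and the ranges overlapped. The 3 Sprr2a copies made up 0.453% of counts on average, more than all other members together, and ran from 0.0964% in negative 3 to 0.743% in positive 2. Of the other sets, the 4 named envelope genes took 0.196%, the Sprr1 genes 0.11% and the Lce1 genes 0.0891% of counts, and the Lce3 genes 0.0138%.

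**Figure D1:**
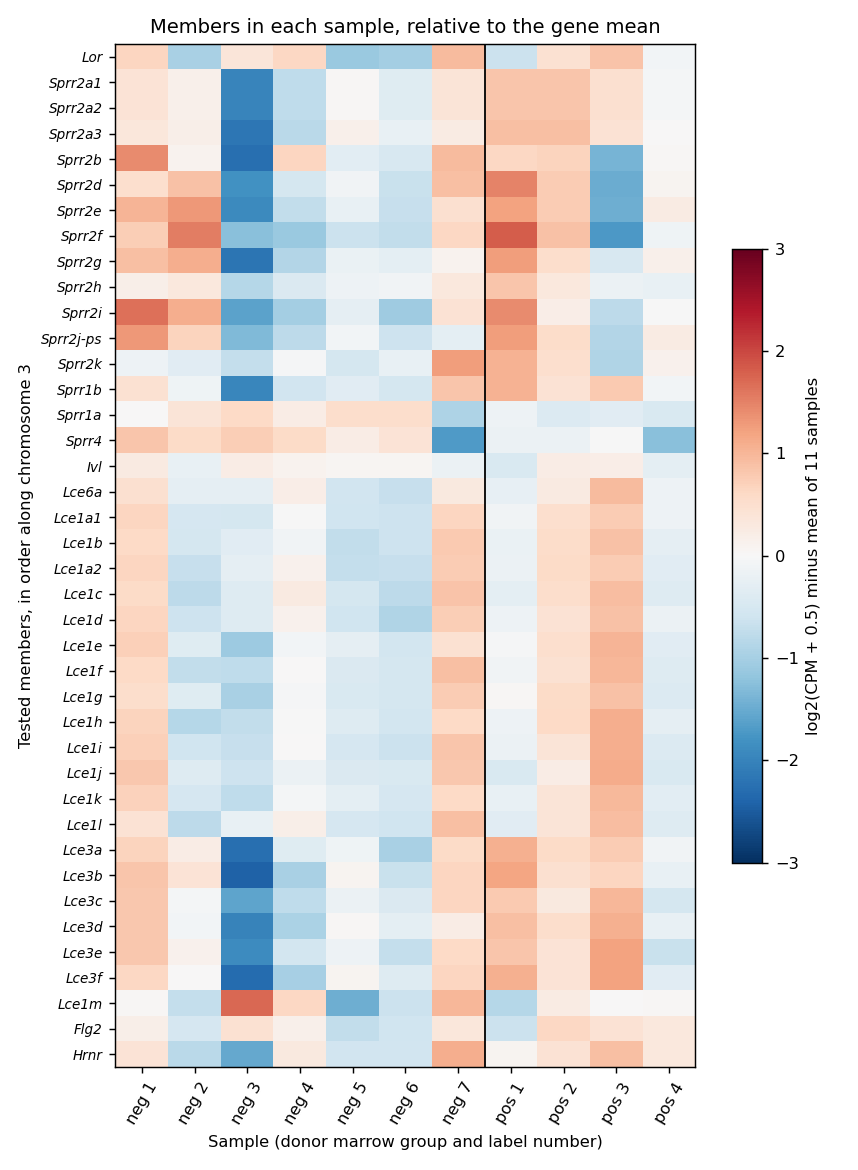
Levels of the 40 tested members (rows, in their order along chromosome 3) in the 11 samples (columns; neg is the negative and pos the positive group), as log2(CPM + 0.5) minus the mean of the gene over the 11 samples; red is above and blue below that mean. Blocks of neighbours vary together: most Sprr2 genes and all Lce3 genes are low in negative 3, and the Lce1 genes other than Lce1m are high in negative 1, negative 7, positive 2 and positive 3.

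The comparison asked whether envelope genes differed between skin of hosts with tdTomato-positive and tdTomato-negative marrow. No member passed the test, and no member separated the groups. Estimates of most Lce and Sprr2 genes lay above 0 (higher in the positive group), and those of Sprr1a, Sprr4, Ivl, Lce1m and Sprr2b lay below. With edgeR's quasi-likelihood test and Benjamini-Hochberg adjustment over 14588 genes, 0 of 40 members had an adjusted p under 0.05, as did 0.0% of all genes; adjusted p ran from 0.257 (Sprr1a) to 0.941 (Sprr2i) among the members, and the smallest over all genes was 0.248. At an unadjusted p under 0.05, edgeR had 1 member of 40, Sprr1a, lower in the positive group, beside 9.73% of all genes lower and 7.05% higher (16.8% in either direction). The CPM ranges of the groups overlapped for all 40 members, whereas 1.67% of all tested genes had groups that did not overlap.

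Of 40 members, 35 had a log2 fold change above 0, against 48.6% of all genes, and the median was 0.35 against -0.007. Reads are shared within the Lce1, Lce3 and Sprr2a sets, so the members in this count are not separate measurements. The medians were 0.70 over the 6 Lce3 genes, 0.42 over the 12 Sprr2 genes, 0.34 over the 14 Lce1 genes and 0.19 over the 4 named envelope genes. Leaving out positive 3 lowered the median over all members to 0.20, and leaving out negative 3 gave 0.28. With the hair score of a sample as a further term, 16 of 40 members lay above 0 (49.5% of all genes did) and the median was -0.05; with a basal epidermis score, 17 of 40 did (50.0% of all genes) and the median was -0.02. The hair genes themselves all had estimates below 0 (34 of 34, median -2.32). DESeq2 called 83 genes (0.569%) and 0 members, limma-voom called 0 genes, and limma-voom with sample quality weights called 2093 genes (14.3%) and 1 member, Sprr1a.

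**Figure D2:**
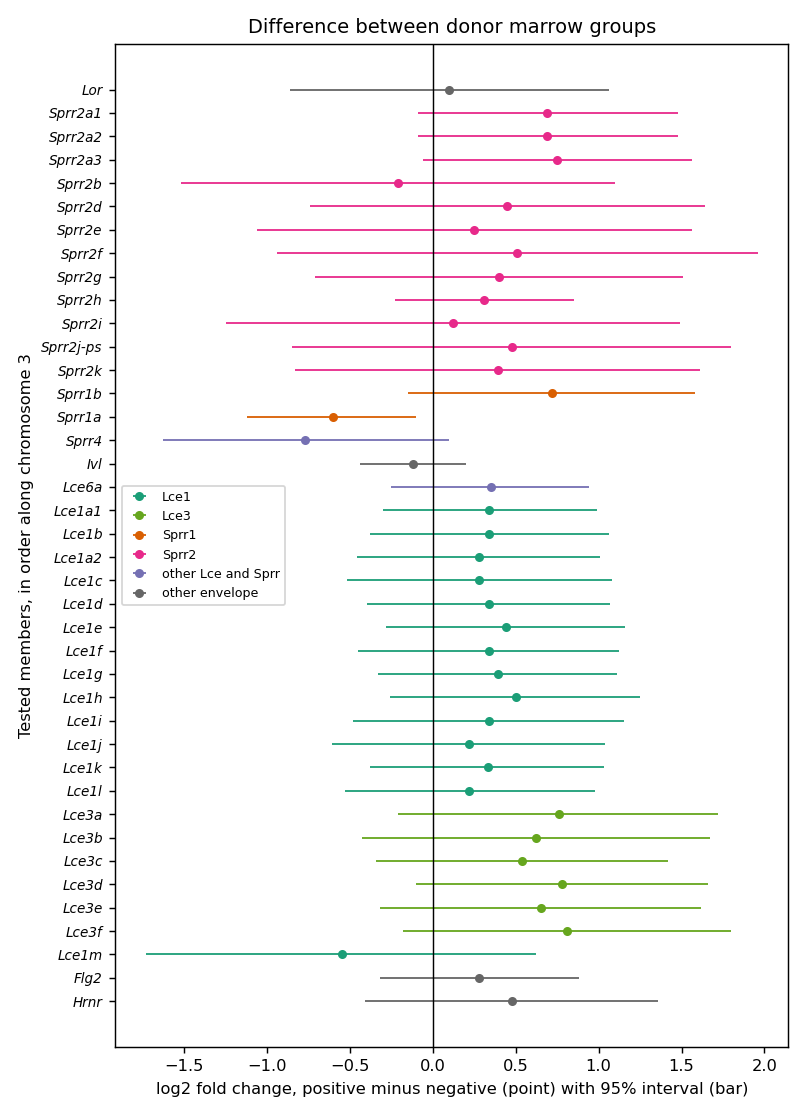
Log2 fold change (positive minus negative group, x axis) of the 40 tested members in their order along chromosome 3, with 95% intervals as bars and colours for the subfamilies. The intervals of all members except Sprr1a include 0, and those of Sprr2b, Sprr2f and Sprr2i are among the widest.

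The structural proteins are described first. Loricrin was at 102 CPM in the lowest, 285 in the median and 428 in the highest negative sample, and at 143, 304, 402 and 210 CPM in positive samples 1 to 4. Both groups held low and high samples, and the ranges were nearly the same (log2 fold change 0.10, SE 0.44, edgeR adjusted p = 0.927). The direction of this small estimate turned in several alternatives, for example to -0.17 without positive 3 and to -0.31 with the hair term. Loricrin was high where Krt10 was high: the 4 samples with the most Krt10 (negative 7, positive 3, negative 1 and negative 4) were also the 4 with the most Lor, at 341 to 428 CPM.

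Involucrin was the steadiest member, at 133 (lowest), 162 (median) and 187 CPM (highest) in the negative and 112, 181, 177 and 126 CPM in the positive samples. Its highest and lowest samples differed 1.68-fold, where the median member differed 6.22-fold and the median of all tested genes 1.75-fold. Without negative 3 these medians were 3.41-fold and 1.67-fold. The difference between the groups was -0.12 on the log2 scale (SE 0.15, 95% interval -0.44 to 0.20, edgeR adjusted p = 0.696).

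Flg2 and Hrnr code for large S100-fused repeat proteins of the filaggrin family. Flg2 ran from 244 through a median of 448 to 559 CPM in the negative group and was at 260, 621, 545 and 501 CPM in the positive group, with 1 low sample there (log2 fold change 0.28, SE 0.27; 0.14 without positive 2 and 0.49 without positive 1). Hrnr ran from 340 through 665 to 2119 CPM in the negative group and was at 1053, 1336, 1842 and 1233 CPM in the positive group (log2 fold change 0.48, SE 0.41, edgeR adjusted p = 0.552). The 4 positive samples lay inside the negative range, above the negative median. The Hrnr estimate was 0.79 without negative 7 and 0.30 without positive 3. The genes follow each other in the order of the members but were not held in a fixed ratio. Counts of Hrnr were 0.608 times those of Flg2 in negative 3, where Flg2 was at its negative maximum, and 4.14 times in negative 7.

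Of the Lce1 genes, 13 had nearly the same order of samples. Reads shared among the 13 were divided by RSEM, so these are not separate measurements. Summed, the 13 genes gave a log2 fold change of 0.34 (SE 0.33, edgeR adjusted p = 0.606). Lce1a1, the Lce1 gene with the highest TPM, was at 93.6 (lowest), 101 (median) and 224 CPM (highest) in the negative group and at 133, 203, 244 and 130 CPM in the positive group (log2 fold change 0.34, SE 0.30, edgeR adjusted p = 0.557). Lce1h, the Lce1 gene with the smallest p, was at 19.9, 27.5 and 58.2 CPM in the lowest, median and highest negative sample and at 32.4, 55.2, 78 and 29.8 CPM in the positive samples (log2 fold change 0.50, SE 0.35, edgeR adjusted p = 0.465). In both genes negative 1, negative 7, positive 2 and positive 3 were high and the other 7 samples lower, so each group held samples of both kinds. Without positive 3 the estimates were 0.16 for Lce1a1 and 0.18 for Lce1h. With all samples, estimates of the 13 genes lay between 0.22 (Lce1j and Lce1l) and 0.50 (Lce1h), with SEs of 0.30 to 0.38. Lce6a, a lone Lce gene beside the Lce1 cluster, was lowest in negative 6 (15.5 CPM) and highest in positive 3 (48.9 CPM), with an estimate of 0.35 (SE 0.27, edgeR adjusted p = 0.515).

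Positive 3 was the highest sample for 12 of the 14 Lce1 genes and for 17 of the 40 members, where 9.4% of all tested genes had their maximum. Krt1, a suprabasal keratin, had its 4 highest samples in the same positive 3, negative 7, negative 1 and positive 2, at 5880 to 10696 CPM. Krt71 was at 42.9 to 524 CPM in those 4 samples, below its level in negative 2 to 6. It was nearly as low in positive 1 (536 CPM), where Lce1a1 was at 133 CPM and Krt1 at 4669 CPM. The part of hair follicle content in the Lce1 levels was not tested beyond the hair term, under which Lce1a1 and Lce1h were at -0.10 and -0.05. In bulk skin, fewer cells of a type and less RNA per cell cannot be told apart.

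Lce1m, whose promoter is printed above, was the exception in the subfamily (chosen after its values were seen). Its TATAAA match did not set it apart. Lce1d also had one, 30 to 25 bases before the start, with an estimate of 0.34 and its maximum in positive 3. Lce1m was highest in negative 3, at 37.1 CPM, a sample in which 6 other Lce1 genes had their minimum. Its negative values ran from 3.64 through a median of 11.1 to 37.1 CPM, and its positive values were 5.73, 12.9, 10.9 and 11.1 CPM, inside that range. The estimate was -0.55 (SE 0.54, edgeR adjusted p = 0.609). Lce1m lies apart from the other Lce1 genes, between Lce3f and Flg2. Its coding sequence was 49.3% (Lce1b) to 59.1% (Lce1i) identical to theirs, with 26.9% glycine and 17.0% cysteine codons.

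The highest and lowest sample differed by a median of 11.1-fold over the Lce3 and 3.39-fold over the Lce1 genes. Most of that gap rested on negative 3, without which the medians were 4.35-fold and 3.21-fold. Lce3d, with the highest TPM and the smallest p of the subfamily, was at 7.01 (lowest), 27.9 (median) and 51.9 CPM (highest) in the negative group and at 55.6, 43.1, 62.5 and 25.1 CPM in the positive group (log2 fold change 0.78, SE 0.40, 95% interval -0.10 to 1.66, edgeR adjusted p = 0.341). Positive samples 1 and 3 exceeded every negative sample, positive 2 and 4 did not. All 6 Lce3 genes had an estimate above 0, between 0.54 (Lce3c) and 0.81 (Lce3f), and since their reads are shared these are not separate measurements. Summed, the Lce3 genes gave 0.69 (SE 0.43, edgeR adjusted p = 0.418).

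Negative 3 was the lowest sample for all 6 Lce3 genes, at 27.6 CPM summed, where the other 6 negative samples ran from 66.6 to 203 CPM and the positive samples from 90.7 to 244 CPM. Over all members negative 3 was lowest for 24 of 40, against 17.3% of all genes. The ratio of Lce1 to Lce3 counts was accordingly 21.1 in negative 3 and between 3.19 (positive 1) and 12.6 (negative 4) elsewhere.

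**Figure D3:**
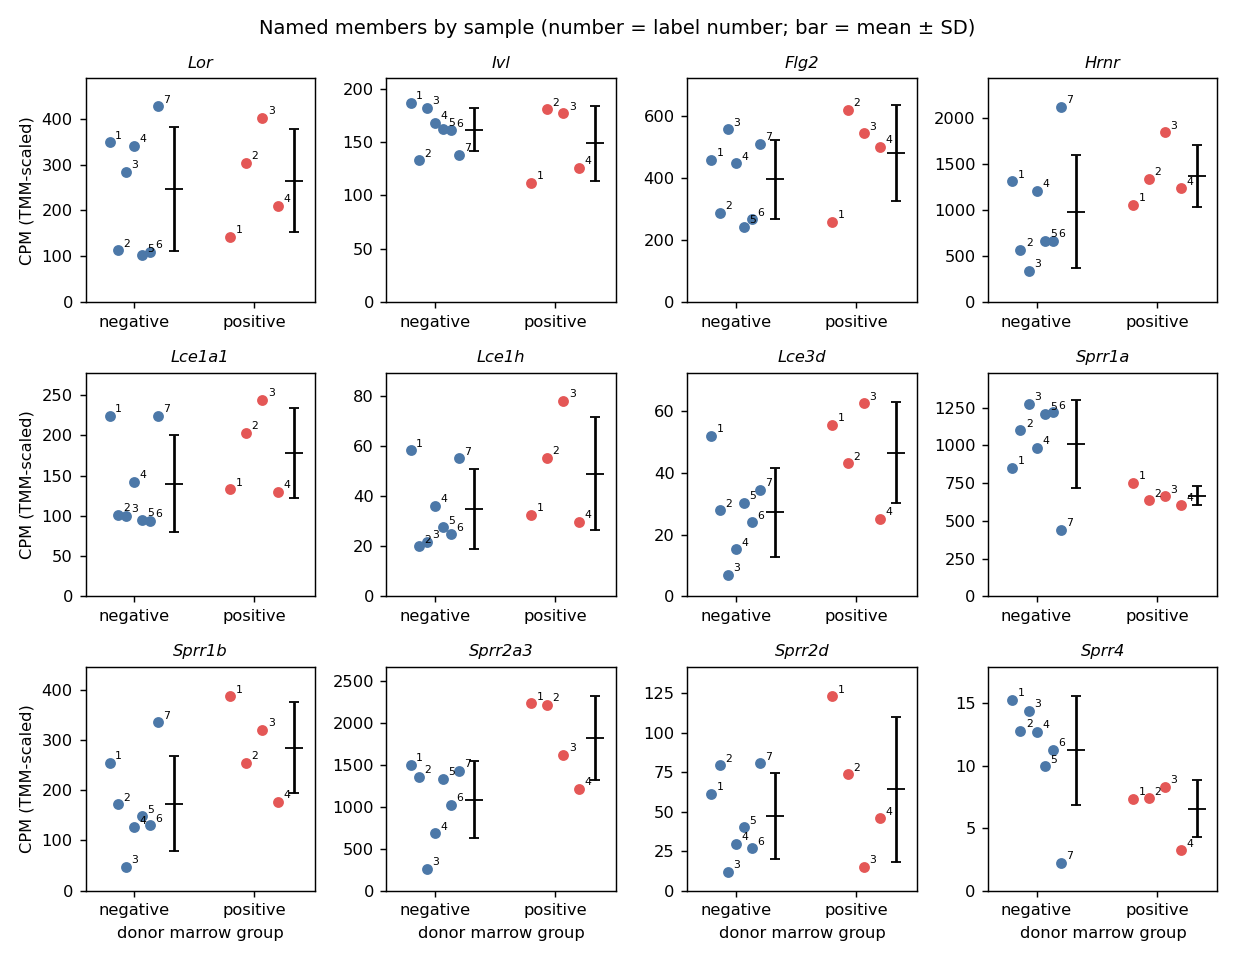
CPM (y axis, from 0) of 12 members in each sample, by donor marrow group; the small number at a point is the label number of the sample, and the bar beside each group is its mean ± SD (n = 7 negative, n = 4 positive). The groups overlap in every panel; Sprr1a and Sprr4 are the panels in which negative 7 lies below all other samples.

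The Sprr1 genes, whose coding sequences are 78.8% identical, differed in their pattern. Sprr1a was at 442 (lowest), 1099 (median) and 1274 CPM (highest) in the negative group and at 753, 637, 662 and 607 CPM in the positive group. Of the negative samples 6 were above all 4 positive samples, and negative 7 was below them. The log2 fold change was -0.60 (SE 0.23, 95% interval -1.12 to -0.10, edgeR adjusted p = 0.257), and limma-voom with sample quality weights gave -0.70 (adjusted p = 0.0273). With the hair term it was -0.15, and with the basal epidermis term -0.09.

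Sprr1b, described beside Sprr1a because it is its sister gene and chosen after its values were seen, was at 48.1, 148 and 335 CPM in the lowest, median and highest negative sample and at 387, 254, 320 and 177 CPM in the positive samples (log2 fold change 0.72, SE 0.40, 95% interval -0.15 to 1.58, edgeR adjusted p = 0.368). Its estimate thus had the opposite sign to that of Sprr1a, and the difference between the estimates was not tested. Sprr1a exceeded Sprr1b in every sample, by 26.5 times in negative 3 and by 1.32 times in negative 7. The ratio was 3.34 in negative 1 and 6.37 to 9.35 in negative 2, 4, 5 and 6, and 1.94, 2.5, 2.07 and 3.42 in the positive samples.

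Sprr1a levels went with hair transcripts. The 5 samples with Krt71 at 4743 CPM or more were the 5 with the most Sprr1a (984 to 1274 CPM), and negative 7, with the least Krt71 (42.9 CPM), had the least Sprr1a. Positive 4, at 2616 CPM of Krt71, had 607 CPM of Sprr1a and stood off this order. Whether Sprr1a RNA came from follicles was not tested.

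Sprr4, a small gene with few reads, followed a similar order. It was at 2.26, 12.7 and 15.3 CPM in the lowest, median and highest negative sample and at 7.35, 7.41, 8.32 and 3.24 CPM in the positive samples. Apart from negative 7, all negative samples exceeded all positive samples (log2 fold change -0.77, SE 0.40, edgeR adjusted p = 0.341). Negative 1 had the most Sprr4 although its Krt71 was at 524 CPM.

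**Figure D4:**
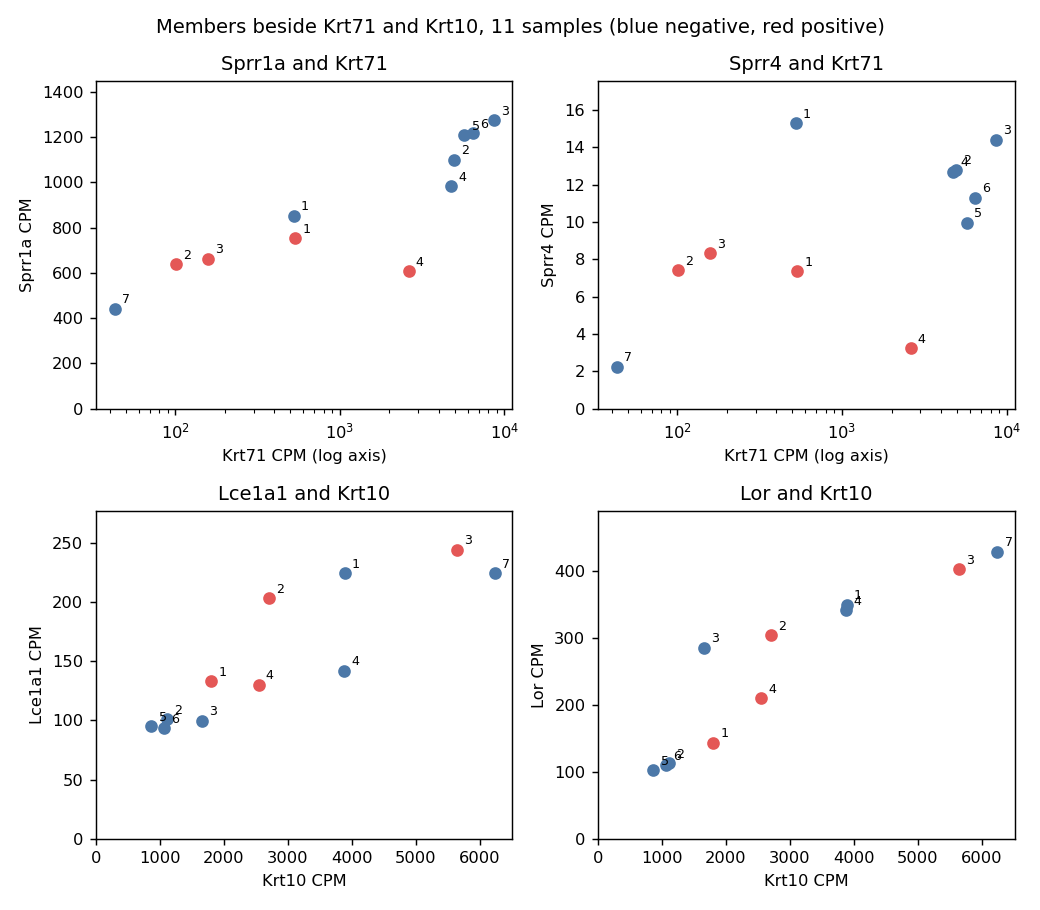
CPM of Sprr1a and Sprr4 (y axes) against Krt71 (x axis, log scale) and of Lce1a1 and Lor against Krt10 (x axis, linear), 1 point per sample, blue for the negative and red for the positive group, with label numbers. Sprr1a is highest in the 5 samples with most Krt71, and Lor is highest in the 4 samples with most Krt10.

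The Sprr2a copies carried most Sprr2 reads. Sprr2a3 was at 266 (lowest), 1336 (median) and 1505 CPM (highest) in the negative group and at 2239, 2223, 1623 and 1214 CPM in the positive group. Positive samples 1, 2 and 3 were above every negative sample, and positive 4 was not. The log2 fold change was 0.75 (SE 0.37, 95% interval -0.06 to 1.56, edgeR adjusted p = 0.324). Summed over the 3 copies, which avoids the split of shared reads, it was 0.71 (SE 0.36, edgeR adjusted p = 0.335), from 3673 ± 1575 CPM (SD, n = 7) to 6008 ± 1597 CPM (SD, n = 4).

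The other 9 Sprr2 genes were lower and varied in another way. All 7 of them with a searched promoter held the TATA, AP-1 and octamer matches shown for Sprr2d. Whether these matches have a part in the levels was not tested. Sprr2d (chosen after its values were seen) was at 12.0, 40.1 and 80.7 CPM in the lowest, median and highest negative sample and at 123, 73.6, 15 and 45.8 CPM in the positive samples (log2 fold change 0.45, SE 0.55, edgeR adjusted p = 0.689). Positive 3, which was above every negative sample for Sprr2a3, was for Sprr2d lower than every sample except negative 3. The same sample was the lowest of the 11 for Sprr2f (3.19 CPM) and Sprr2k (0.411 CPM). Counts of the Sprr2a copies were 60.3 times those of the other Sprr2 genes there and 16.3 to 31.3 times elsewhere.

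Positive 1 or negative 1 was the highest sample for 7 of these 9 genes. Positive 1 was highest for 8 of the 40 members, against 13.8% of all tested genes. Sprr2h, the gene of this group with the smallest spread, ran from 30.7 to 101 CPM (3.30-fold), and Sprr2b, with the largest, from 0.674 to 14.7 CPM (21.8-fold, on 5.20 to 114 counts). Estimates of the 9 genes lay between -0.21 (Sprr2b, SE 0.60) and 0.51 (Sprr2f, SE 0.66). The pseudogene Sprr2j-ps was measured at 0.404 to 5.02 CPM. Negative 3 was the lowest sample for 10 of the 12 Sprr2 genes.

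**Figure D5:**
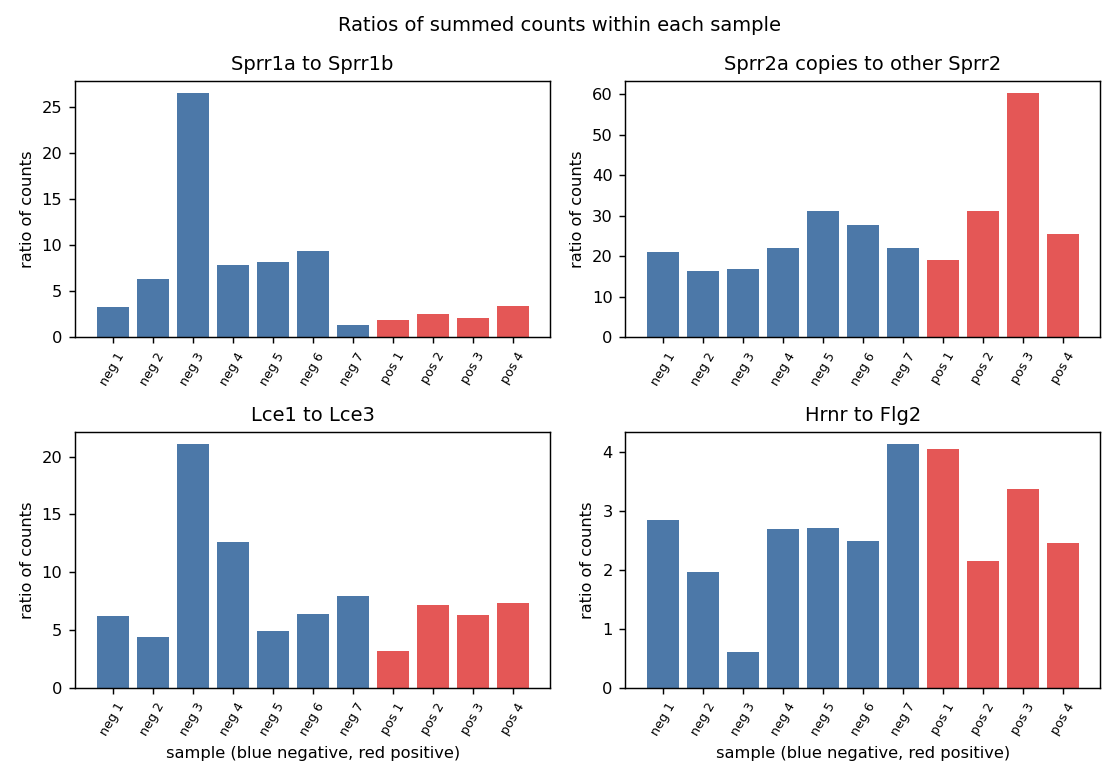
Ratio of summed counts (y axes) of Sprr1a to Sprr1b, of the 3 Sprr2a copies to the other 9 Sprr2 genes, of Lce1 to Lce3 and of Hrnr to Flg2 in each sample, blue for the negative and red for the positive group. Negative 3 has the highest Sprr1a to Sprr1b and Lce1 to Lce3 ratios (26.5 and 21.1), and positive 3 the highest ratio of Sprr2a to other Sprr2 (60.3).

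Genes that build or cross-link the envelope beside the members, in lists chosen by name, also gave 0 calls at an adjusted p under 0.05. Of 15 tested scaffold and cross-linking genes, 5 had an estimate above 0 (median -0.10). At an unadjusted p under 0.05 edgeR had 3 of the 15, all lower in the positive group, beside 9.73% of all genes. These were the plakin envoplakin (Evpl, -0.46, SE 0.12), transglutaminase 3 (Tgm3, -1.01, SE 0.29) and periplakin (Ppl, -0.32, SE 0.13), each with edgeR adjusted p of 0.248 to 0.26. Tgm3 was at 53.4 to 168 CPM in the negative and 28.0 to 63.2 CPM in the positive group and was highest in negative 3, where most Sprr2 and Lce3 genes were lowest. Of 21 other tested genes of the epidermal differentiation complex, 11 lay above 0 (median 0.03). At an unadjusted p under 0.05 edgeR had 5 of them lower and 1 higher, beside 9.73% and 7.05% of all genes. Among those lower were S100a1 (-1.0, SE 0.32) and S100a16 (-0.47, SE 0.16), and the 1 higher was S100a4 (0.48, SE 0.16). Flg was not analysed here.

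Of 34 regulators of terminal differentiation, 12 lay above 0 (median -0.08), and 11 had an unadjusted p under 0.05, all lower in the positive group, beside 9.73% of all genes. Ovol1, a repressor active in suprabasal cells and follicles, was at 80.2 to 143 CPM in the negative and 54.2 to 80.0 CPM in the positive samples (log2 fold change -0.70, SE 0.16, edgeR adjusted p = 0.248). Jund, an AP-1 subunit, was at -0.40 (SE 0.13) and Notch1 at -0.59 (SE 0.19). All 3 were highest in negative 3, which also had the most Krt71. Of 27 spinous and granular genes 22 lay above 0 (median 0.19), of 11 basal genes 10 did (median 0.25), and of 17 stress genes of the epidermis 16 did (median 0.49), Krt17 being the exception at -0.42 (SE 0.12).

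Cyp24a1 is a target of the vitamin D receptor, through which MC903 acts. It was at 23.3 to 168 CPM in the negative and 281, 27.1, 154 and 65.5 CPM in the positive samples. The members took 1.14%, 1.24%, 1.14% and 0.792% of counts in positive 1 to 4, and 0.43% to 1.07% in the negative samples. Whether this share went with Cyp24a1 was not tested. With Cyp24a1 as a further term, 35 of 40 members lay above 0 and the median was 0.39. Of 8 vitamin D response genes, 4 lay above 0 (median -0.06). At an unadjusted p under 0.05 edgeR had 3 of the 8 lower and 0 higher in the positive group, beside 9.73% and 7.05% of all genes. The 3 were Cyp27b1, which makes active vitamin D (-1.14, SE 0.32), the calcium channel Trpv6 (-1.25, SE 0.40) and the receptor Vdr (-0.48, SE 0.20). Their edgeR adjusted p was 0.248 to 0.272. Cyp27b1 rested on 4 to 16 counts per sample, and all 3 genes were highest in negative 3, which also had the most Krt71.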

How the data were processed

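Total RNA of back skin was sequenced in 11 samples (7 negative, 4 positive). Per the submitters' processing notes, reads were handled with bcl2fastq and Trim Galore and quantified with RSEM on GRCm38. For the aligner, the strand setting and all versions, the sources used here give nothing. The deposited expected counts are RSEM's estimated read counts per gene, not normalized, per the file headers. The TPM deposited by the authors are scaled to effective length and to the same sum in each sample. The deposited gene lengths and effective lengths served for offsets and to describe the members.

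Expected counts were rounded to whole numbers. Of 24411 genes, 14588 passed filterByExpr (minimum count 10, minimum total 15). The test was edgeR 4.0.16 (glmQLFit in legacy mode and glmQLFTest, TMM factors, group as the only term, R 4.3.3) with Benjamini-Hochberg adjustment over all tested genes and a threshold of 0.05. SE was obtained as the absolute log2 fold change over the root of F. Alternatives were other scalings and filters, DESeq2 1.42.0, limma 3.58.1 (voom, with and without quality weights, and trend on log2(TPM + 1)), effective-length offsets, hair, basal epidermis and Cyp24a1 terms, a block for replicate number, and omission of each sample in turn. The procedure was first tested on simulated data. A floor for a count of 0 covers counting error only, because the labels name no molecular identifiers.

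The members, lists and rules were chosen with earlier results of these data known. Values are given for Lor, Ivl, Flg2, Hrnr and, in each subfamily, the member with the highest mean TPM and that with the smallest p; up to 3 genes with the smallest p were named from each other list, and Krt10, Krt1, Krt14, Krt71 and Cyp24a1 were set beside the members. The coordinates, promoters and motif shares come from RefSeq on GRCm38.p6, and coding sequences from GENCODE M21.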

Additional observations from a re-analysis of the deposited data

Results flagged for a closer look

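Negative 7 stood far from the other negative samples in 2 members. Its Sprr2k level was 3.59 CPM, where the other 6 ran from 0.539 to 1.15 CPM. Its Sprr4 level was 2.26 CPM, where the other 6 ran from 9.97 to 15.3 CPM. In all, 82 sets of values were checked, of which chance alone would single out about 4.1 at 1 in 20.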

How the results depend on the processing

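No member passed the adjusted threshold in any alternative except limma-voom with quality weights, which called 1 (Sprr1a, -0.70). Genes called were 0 in the reported test, 83 with DESeq2, 2093 with quality weights and 0 to 3 when leaving out 1 sample (1 without negative 4, 3 without negative 7). Members above 0 numbered 35, 16 with the hair term, 17 with the basal epidermis term and 29 to 36 when leaving out 1 sample; the cause was not tested. Lor ran from -0.17 to 0.31 when leaving out 1 sample. The members' median of 0.35 ran from 0.20 to 0.52 when leaving out 1 sample and was 0.66 with quality weights. Of 296 alternatives for 11 named members, 285 kept direction and side of the threshold and 10 changed sign: Lor at -0.31 (hair), -0.21 (basal epidermis), -0.03 (replicate block), -0.02, -0.03 and -0.03 (without negative 2, 5 and 6) and -0.17 (without positive 3), Lce1a1 at -0.10 and -0.01 (hair, basal epidermis) and Lce1h at -0.05 (hair). The share of the members was 0.883% of counts and 1.29% of TPM, since TPM weighs short genes more.

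Whether the replicate numbers pair the samples was not settled, since only numbers 1 to 4 stand in both groups. Deviations of same-numbered samples correlated at -0.0417, -0.14, -0.0538 and 0.338. The negative samples that correlated best with positive 1, 2, 3 and 4 were numbers 2, 7, 1 and 6. The replicate block over the 8 samples numbered 1 to 4 called 0 genes and gave a member median of 0.36. At an unadjusted p under 0.05 edgeR had 2329 of 14398 genes with the block, against 2029 in the same samples without it. Beside the 2329 of 14398 genes with the block stood 7 of 39 members (Sprr1a, Sprr1b, Sprr2a1, Sprr2a2, Sprr2a3, Sprr2h and Sprr4). Of these, Sprr2a1 and Sprr2a2 carry 1 measurement. In the same 8 samples without the block, members were not counted. The reported test, over all 11 samples, had 1 of 40 members beside 16.8% of all genes. Leaving out negative 3 (chosen after seeing the data) also moved the median fold between highest and lowest sample from 6.22 to 3.41 over the members, from 11.1 to 4.35 over Lce3, from 10.6 to 7.05 over Sprr2 and from 5.46 to 2.92 over Sprr1. Depth limits Sprr3 (0 to 3 counts) and Sprr2k (4 to 27 counts).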

Other observations

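Markers of other cells of skin were read from the same fit, and their part in the levels of the envelope genes was not tested. Estimates lay above 0 for 12 of 12 macrophage and monocyte genes (median 0.58), 7 of 7 adipocyte genes (0.56), 5 of 5 neutrophil genes (1.47), 8 of 8 fibroblast genes (0.39), 7 of 7 endothelial genes (0.34), 8 of 8 skeletal muscle genes (0.39), 7 of 7 T cell genes (0.30) and 5 of 6 mast cell genes (0.09). They lay below 0 for 10 of 10 melanocyte genes (median -1.47), and above 0 for 5 of 10 sebaceous gland genes (0.01). No gene of these lists had an edgeR adjusted p under 0.05.

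Further motifs before the members were counted in the same windows of 250 bases on both strands. AGGAAG, the core of epithelial ETS sites, stood before 20 of 38 members (52.6%, against 29.2% of all promoters), and CACCC, read by KLF factors, before 14 (36.8%, against 51.3%). TGACNNNGC stood before 7 (18.4%, against 10.2%), among them Lce3c, Lce3d and Lce3e, Sprr1a and Lce6a. The vitamin D receptor DR3 repeat stood before 0 of 38 and before 0.01% of all promoters.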
